A study of Mus musculus with 90 samples.

Results

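A set of 9 genes that mark macrophages or serve them as uptake receptors were followed through mouse melanomas given an antibody against the immune checkpoint ligand PD-L1. Macrophages are tissue phagocytes that live on signals through the receptor Csf1r, clear dying cells with receptors such as Mertk, and bind modified lipoproteins, sugars and particles with a diverse set of scavenger receptors. In tumours they are often the most abundant immune cells, and the proportions of the molecules they carry differ between tissues and activation states. The 9 genes were taken by name and each had at least 1 probe set on the arrays, 15 in all, among 18193 genes measured. Csf1r, Adgre1 (the F4/80 antigen) and the endosomal glycoprotein Cd68 are identity genes. Mertk is a receptor tyrosine kinase for dying cells. Mrc1 is the mannose receptor, Cd163 the receptor for haptoglobin bound to haemoglobin, Cd5l a protein secreted by tissue macrophages, and Msr1 and Marco are class A scavenger receptors.

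Tumours were subcutaneous melanoma allografts with the genotype Hgftg;Cdk4R24C/R24C, that is an Hgf transgene with a Cdk4 allele carrying R24C, on the strain B6.cBrd; the labels give no age. Every group carried both alleles. Anti-PD-L1 (mouse IgG1 carrying D265A) was given at 10 mg/kg and its tumours were divided by outcome, as the design text describes. Stabilization tumours (3 arrays) kept their volume over 2 measurements, and Relapse tumours (6) came back after 4 to 10 doses having first shrunk beyond measurement. GrowthDelay tumours (2) appeared late, Responder tumours (27) lost 5% or more of their volume and were harvested once 2 to 12 doses had been given, and NonResponder tumours (23) kept growing. ControlIgG tumours (22) received a normal IgG at 10 mg/kg, and PBS tumours (7) received 10 ml/kg of buffer. The outcome labels were given after treatment, so groups within the anti-PD-L1 arm were not assigned at random. Sample titles are numbers in 4 ranges without overlap, and no label says what a range stands for; each range is treated as a title series. Responder, NonResponder and Relapse tumours occur in the larger (53 arrays) and also in the smaller (25 arrays) of the main title series. Stabilization tumours occur only in the smaller series and GrowthDelay tumours only in the larger. A further 8 ControlIgG and 4 PBS arrays form a series each, so ControlIgG and Responder tumours meet only in the larger series.

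The deposited values are log2 intensities, normalized with RMA (robust multi-array average) per the submitters' processing notes, and every level below is on that scale. Differences come from a limma model over all 18193 genes with group and title series as terms, and "rose" means an adjusted p below 0.05 (Benjamini-Hochberg over all genes). The labels do not say that each array is a separate mouse, so p-values measure the spread between these samples, which may in part be technical. Levels are whole-tumour values, in which fewer macrophages and less RNA per macrophage cannot be told apart. NonResponder replicate 14 and Responder replicate 20 stood apart from the other arrays: their lymph node stroma scores (mean log2 level of the marker list) were 8.8 and 9.08, against a median of 5.17 in NonResponder and 5.2 in Responder tumours, and results are given without them where they move. Relapse replicate 6 followed with a score of 7.145. Responder replicate 21, which held the highest Responder value of 4 members, had the lowest mean correlation with the other arrays (0.883) and a melanocyte score of 6.97, and it is among the 5 arrays left out together as an alternative. Skeletal muscle markers stood more than 2 above the median array on arrays of every group, including 2 of 3 Stabilization, 2 of 6 Relapse, 6 of 27 Responder, 8 of 23 NonResponder and 4 of 22 ControlIgG tumours.

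Promoter sequence of RefSeq (table on build GRCm38.p6, 300 bases that end shortly after the gene start) was found for 6 of the 9 genes, and 3 are shown because they belong to members with contrasting roles and behaviour below: Cd68 (chr11:69666121-69666420, minus strand), Mrc1 (chr2:14229164-14229463, plus strand) and Cd5l (chr3:87357631-87357930, plus strand). Capitals mark GAGGAA, the core letters bound by the macrophage regulator PU.1 (Spi1), on either strand.
Cd68: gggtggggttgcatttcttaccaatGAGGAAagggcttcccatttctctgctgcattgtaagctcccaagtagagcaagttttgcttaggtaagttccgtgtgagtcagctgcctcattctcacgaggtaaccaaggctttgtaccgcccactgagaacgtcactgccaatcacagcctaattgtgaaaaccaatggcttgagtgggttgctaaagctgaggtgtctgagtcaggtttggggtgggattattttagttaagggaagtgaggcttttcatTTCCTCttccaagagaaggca
Mrc1: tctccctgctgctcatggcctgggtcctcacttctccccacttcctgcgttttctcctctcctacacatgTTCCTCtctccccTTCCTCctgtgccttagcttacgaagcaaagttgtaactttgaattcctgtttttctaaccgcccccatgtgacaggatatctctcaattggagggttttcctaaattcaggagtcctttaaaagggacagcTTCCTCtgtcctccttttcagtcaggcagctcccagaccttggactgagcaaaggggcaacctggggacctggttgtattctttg
Cd5l: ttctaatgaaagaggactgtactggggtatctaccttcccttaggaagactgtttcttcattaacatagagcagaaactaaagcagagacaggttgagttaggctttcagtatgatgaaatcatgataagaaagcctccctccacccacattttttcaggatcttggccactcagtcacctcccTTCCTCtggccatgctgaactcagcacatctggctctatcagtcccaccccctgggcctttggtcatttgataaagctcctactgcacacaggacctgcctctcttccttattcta
These letters occurred in 4 of the 6 member promoters (Marco, Mrc1, Cd5l and Cd68), and in 28.3% of the 32851 promoters of that length. The AP-1 letters TGANTCA were in 1 of 6 (7.81% of all promoters) and the C/EBP letters TTGCNNAA in 1 of 6 (10.8%), both in Cd68. The interferon-stimulated response element was matched in 0 of 6 (3.44%). All motifs were searched on both strands, and a match describes the letters and not a bound site.

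The first question was whether shrinking tumours differed from growing ones under the same antibody. Of the 9 genes 8 rose in Responder over NonResponder tumours, and the ninth, Cd163, had a positive difference. Of all genes 47% were called in this comparison and 17.2% were higher, so the 8 of 9 stood against a background of 17.2%. The median difference was 0.97 over the members and -0.06 over all genes. The haptoglobin receptor Cd163 was the only member not called.

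Among the identity genes, Csf1r read 8.83 at the lowest, 11.29 at the median and 13.36 at the highest in Responder tumours, against 8.43, 9.91 and 12.82 in NonResponder tumours. Both ranges overlap, but 22 of 27 Responder arrays lay above the NonResponder median, and 17 of 27 lay above 10.88, the second highest NonResponder value. Csf1r rose by 1.32 ± 0.27 (log2 difference ± SE, adjusted p = 0.000304, limma), a fold of 2.49. Adgre1 ran through 7.08, 9.36 and 11.15 in Responder tumours (lowest, median, highest) and through 6.53, 8.31 and 11.08 in NonResponder tumours. It rose by 1.03 ± 0.22 (adjusted p = 0.000505, limma), and again 22 of 27 Responder arrays were above the NonResponder median. Cd68 ran through 8.53, 10.21 and 12.06 in Responder tumours and through 7.87, 9.27 and 12.22 in NonResponder tumours. Cd68 rose by 0.97 ± 0.23 (adjusted p = 0.00119, limma). The highest array of all 50 for Cd68 was thus a NonResponder, replicate 14, which also held the highest NonResponder value of every other member.

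The engulfment receptor Mertk had the smallest standard error of the 9 genes. Its values were 7.6, 8.41 and 10.45 in Responder tumours (lowest, median, highest) and 7.24, 7.75 and 9.52 in NonResponder tumours. Apart from replicate 14, no NonResponder array exceeded 8.05, a level that 19 of 27 Responder arrays passed. Mertk rose by 0.75 ± 0.15 (adjusted p = 0.000251, limma), a fold of 1.68.

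The scavenger and tissue-macrophage genes were less uniform. Cd5l, the secreted protein, had values of 5.54, 9.19 and 11.01 in Responder tumours and of 4.9, 7.24 and 11 in NonResponder tumours. It rose by 1.25 ± 0.38 (adjusted p = 0.00721, limma), a mean change close to that of Csf1r but with a wider error. Marco had values of 5.17, 7.43 and 10.33 in Responder tumours and of 5.07, 6.33 and 8.65 in NonResponder tumours, and 6 Responder arrays lay above every NonResponder array. Marco rose by 1.05 ± 0.30 (adjusted p = 0.00526, limma).

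Msr1, the other class A receptor, had values of 7.3, 9.03 and 10.48 in Responder tumours and of 6.8, 8.2 and 10.21 in NonResponder tumours. It rose by 0.60 ± 0.18 (adjusted p = 0.00824, limma). Of its 4 probe sets, 3 were called higher (adjusted p from 0.00717 to 0.0286) and the dimmest had 0.32 ± 0.15 (adjusted p = 0.0609). All 3 probe sets of Csf1r and both of Marco were called higher, with differences of 0.75 to 1.32 and of 0.85 to 1.05.

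Mrc1, the mannose receptor, had values of 6.9, 9.0 and 11.06 in Responder tumours and of 6.53, 8.36 and 10.61 in NonResponder tumours, and the groups overlapped widely. Its rise of 0.61 ± 0.25 (adjusted p = 0.0427, limma) was lost when any of 18 of the 50 arrays was left out, with a highest adjusted p of 0.0777. For Cd163 the values were 3.51, 5.89 and 8.5 in Responder tumours and 3.52, 4.81 and 7.73 in NonResponder tumours. Its difference of 0.43 ± 0.32 (95% interval -0.20 to 1.07, adjusted p = 0.25, limma) did not pass. The calls of the other 8 genes, including the missing call of Cd163, did not change when any 1 array was left out. Every difference was largest without NonResponder replicate 14, for example 1.47 for Csf1r and 1.43 for Cd5l.

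**Figure D1:**
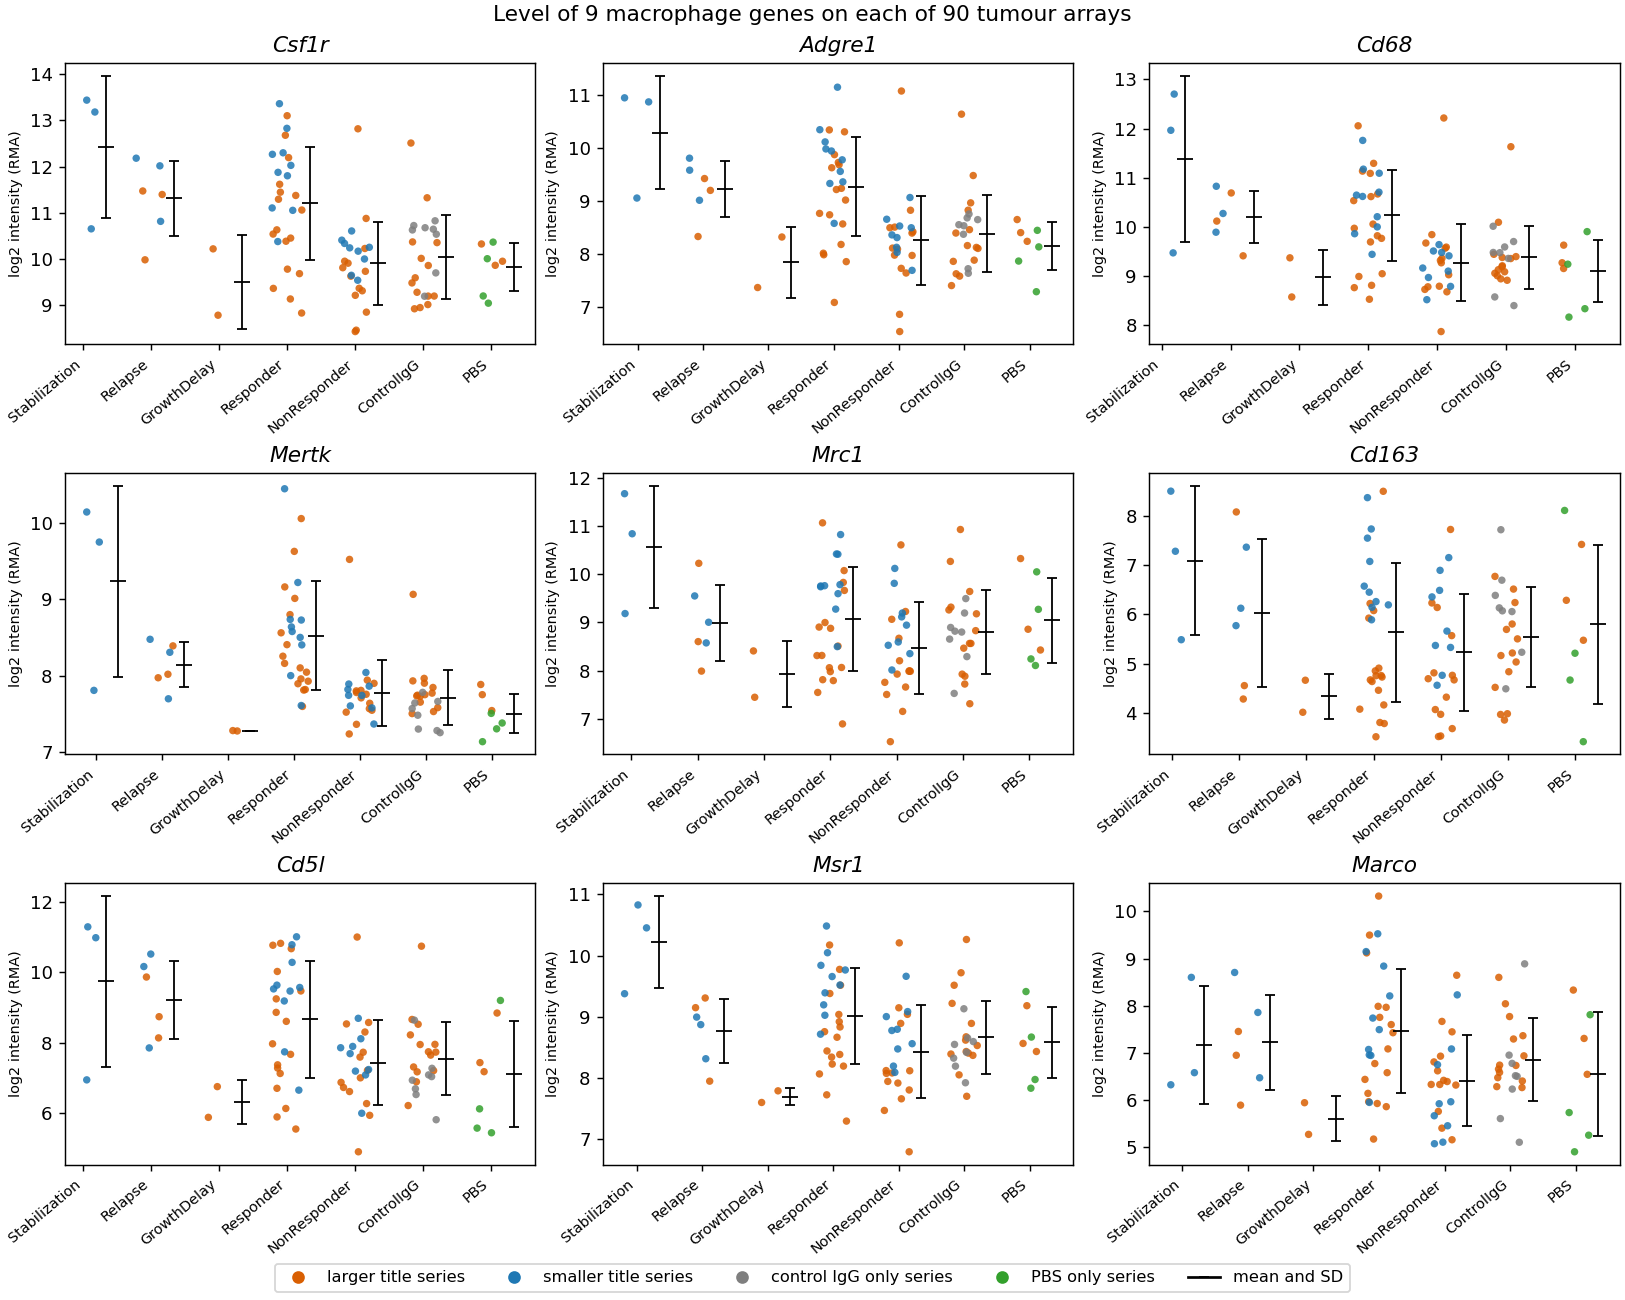
Log2 level of each of the 9 genes (y axis) on each array, by group (x axis), coloured by title series; the bar beside each group is the mean with its SD. Responder points lie mostly above NonResponder points for Csf1r, Adgre1, Cd68 and Mertk, while Mrc1 and Cd163 overlap more; NonResponder replicate 14 is the isolated high point (Csf1r 12.82).

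Both title series gave positive differences for all 9 genes, larger in the smaller series. For Csf1r the difference was 1.04 ± 0.34 in the larger and 1.77 ± 0.44 in the smaller series. For Cd163 it was 0.10 ± 0.41 in the larger and 0.98 ± 0.52 in the smaller series. These values come from a limma model fitting every combination of group and series separately, in which 0 of 9 members were called in the larger series, where 2.63% of all genes were, although 4 had an unadjusted p below 0.05 and Mertk had an adjusted p of 0.053. In the smaller series 7 of 9 were called higher, all but Mrc1 and Cd163, where 36.7% of all genes were called. The difference between the series was itself called for 0 of 9 members and for 0% of all genes (limma; 2418 genes and 0 members had an unadjusted p below 0.05). The members' unadjusted p for it ran from 0.125 for Marco to 0.475 for Mrc1.

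**Figure D2:**
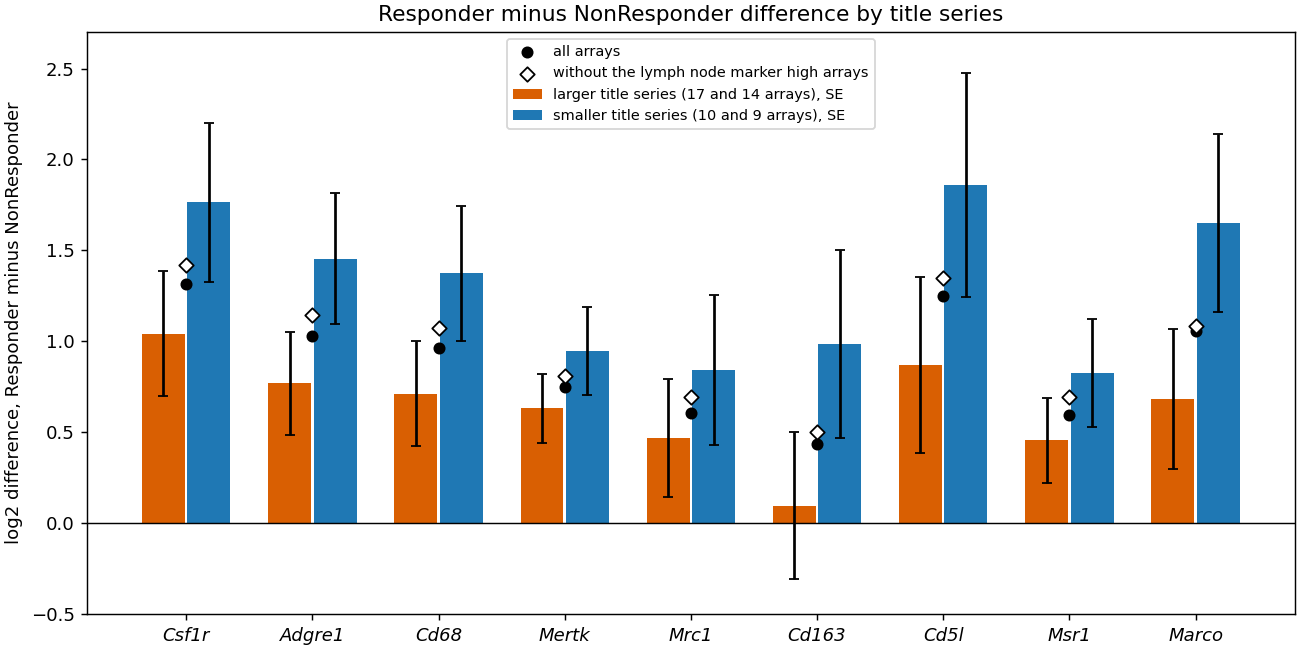
Log2 difference, Responder minus NonResponder (y axis), for each gene (x axis) within the larger and smaller title series (bars, with SE), over all arrays (black points) and without the 2 arrays high in lymph node markers (diamonds). Bars of the smaller series are the taller ones for every gene, from 0.83 for Msr1 to 1.86 for Cd5l.

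The 9 genes did not change by equal amounts. The mean within-series difference was compared between all 36 pairs of members by permuting the Responder and NonResponder labels within each title series (two-sided permutation test, p adjusted over the 36 pairs), and 14 pairs differed at an adjusted p below 0.05. Csf1r rose more than Adgre1 (by 0.29, adjusted p = 0.017), Cd68 (by 0.36, adjusted p = 0.0189), Mertk (by 0.61, adjusted p = 0.00504), Mrc1 (by 0.75, adjusted p = 0.00216), Cd163 (by 0.86, adjusted p = 0.00306) and Msr1 (by 0.76, adjusted p = 0.0063). Adgre1 exceeded Mertk, Mrc1, Cd163 and Msr1 by 0.32 to 0.57. Cd5l exceeded Mrc1, Cd163 and Msr1 by 0.71 to 0.82, and Marco exceeded Cd163 by 0.63. Csf1r and Cd5l differed by 0.04 (adjusted p = 0.909), with 0.17 in the larger and -0.09 in the smaller series. A log2 difference depends on how a probe set responds to its transcript, so these comparisons are between probe sets as much as between genes. With the mean of each gene's probe sets, Csf1r minus Adgre1 was 0.083 (adjusted p = 0.457) and Csf1r minus Cd68 0.151 (adjusted p = 0.275), and the calls of Adgre1 over Mertk and of Cd5l and Marco over Cd163 were also lost, at adjusted p of 0.0511, 0.0511 and 0.0688.

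The second question was how each outcome stood to tumours given control IgG. In Responder tumours 4 of 9 members rose, and they were the 3 identity genes and Mertk, where 37.3% of all genes were called and 14.5% were higher. Csf1r had values of 8.93, 9.94 and 12.51 in ControlIgG tumours (lowest, median, highest), a range that overlaps the Responder one, and 13 of 27 Responder arrays lay above 11.33, the second highest ControlIgG value. Csf1r rose by 1.06 ± 0.33 (adjusted p = 0.011, limma), Adgre1 by 0.68 ± 0.27 (adjusted p = 0.0391), Cd68 by 0.74 ± 0.28 (adjusted p = 0.0303) and Mertk by 0.64 ± 0.18 (adjusted p = 0.00663). For Mertk 20 of 27 Responder arrays lay above 7.97, the second highest of the 22 ControlIgG arrays. The counts for Csf1r and Mertk pool the title series. Of the 27 Responder arrays 10 were in the smaller series, which holds no ControlIgG array. ControlIgG replicate 7 held the highest ControlIgG value of 7 of the 9 members. Its fibroblast (11.54), skeletal muscle (11.43), T cell (7.045), neutrophil (6.92) and dendritic cell (6.708) scores were also the highest of its group. Their part in the result was not tested. The call of Adgre1 was lost without any of 15 of the 49 arrays, and that of Cd68 without ControlIgG replicate 11 or Responder replicate 4. All of these arrays were in the larger series, which holds 17 Responder and 14 ControlIgG arrays. The 8 ControlIgG arrays in a series of their own cannot move these differences. Adgre1 stayed at 0.683 without any of them.

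The 5 scavenger and tissue-macrophage genes did not pass against control IgG. Cd5l differed by 0.56 ± 0.46 (95% interval -0.35 to 1.48, adjusted p = 0.321, limma) and Marco by 0.39 ± 0.37 (interval -0.34 to 1.13). Msr1 differed by 0.02 ± 0.22 (interval -0.43 to 0.46), Mrc1 by -0.11 ± 0.31 (interval -0.73 to 0.50) and Cd163 by -0.11 ± 0.39 (interval -0.88 to 0.66). The intervals include changes of the size seen for Mertk in all but Mrc1 and Msr1, whose upper bounds lie below its 0.64. Within the larger series alone, where both groups occur, that model gave 0.94 ± 0.34 for Csf1r (adjusted p = 0.0364, limma) and 0.59 ± 0.19 for Mertk (adjusted p = 0.022). Adgre1 stood at 0.56 (adjusted p = 0.116) and Cd68 at 0.63 (adjusted p = 0.0873) there.

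In the model with title series as a term, NonResponder tumours stood below control IgG for every member. There 0 of 9 members and 0% of all genes were called (limma), while 838 genes and 2 members had an unadjusted p below 0.05. Mrc1 differed by -0.72 ± 0.32 (unadjusted p = 0.0259) and Msr1 by -0.58 ± 0.23 (unadjusted p = 0.0142), both with an adjusted p of 0.9996. Cd5l, Marco and Cd163 stood at -0.68, -0.66 and -0.54, and Adgre1, Csf1r, Cd68 and Mertk at -0.35, -0.26, -0.22 and -0.11. Both this comparison and the one before it use the same ControlIgG arrays. Without the arrays high in skeletal muscle markers, Csf1r, Adgre1, Cd68 and Mertk turned positive, at 0.06 to 0.23.

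**Figure D3:**
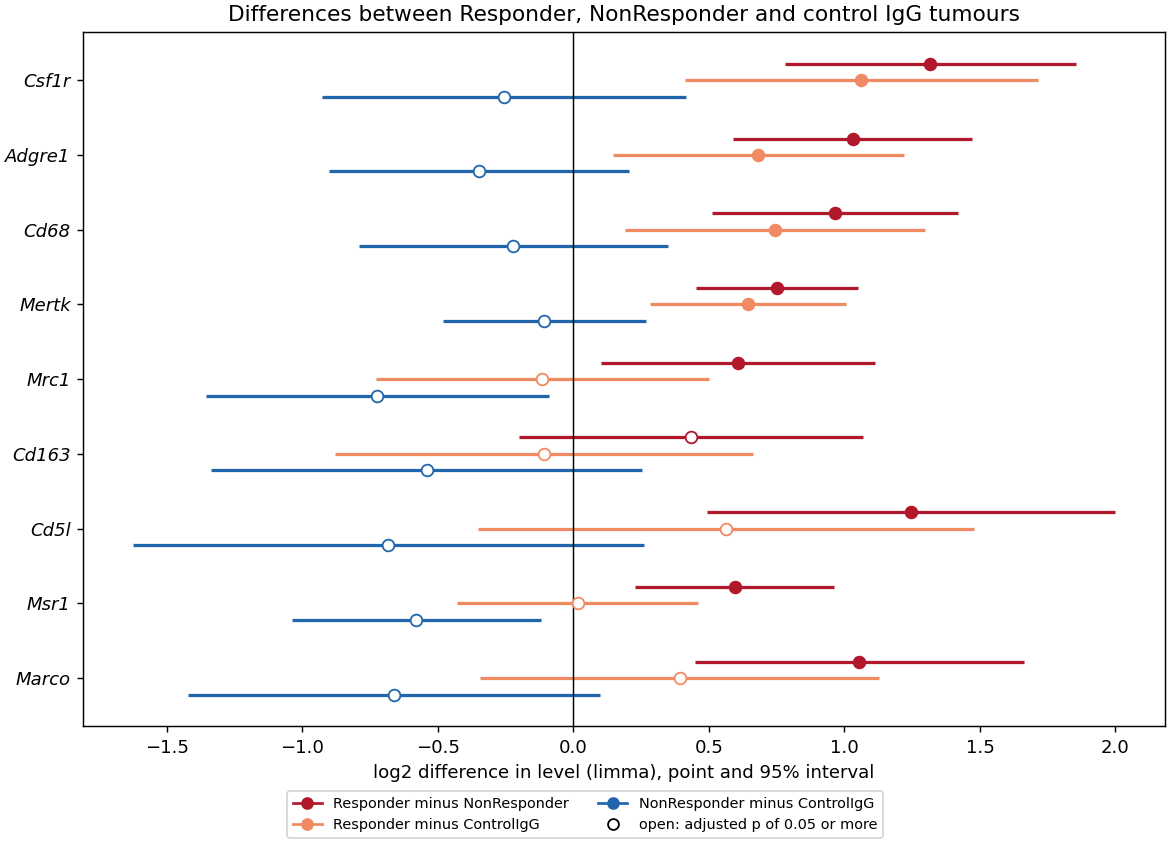
Log2 difference with its 95% interval (x axis) for each gene (y axis) in Responder minus NonResponder, Responder minus ControlIgG and NonResponder minus ControlIgG tumours; filled points have an adjusted p below 0.05. Csf1r, Adgre1, Cd68 and Mertk are filled in both Responder comparisons, and no gene is filled in NonResponder minus ControlIgG.

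Tumours that had regrown under treatment overlapped the Responder tumours in these genes. In Relapse tumours Csf1r read 11.47, 9.98, 11.4, 12.18, 10.82 and 12.02 on the 6 arrays, all above the NonResponder median of 9.91. Cd5l read 8.74, 8.14, 9.87, 10.16, 7.85 and 10.52, all above the NonResponder median of 7.24. In Relapse over NonResponder tumours 2 of 9 members rose, where 20.3% of all genes were called and 8.43% were higher. Csf1r rose by 1.32 ± 0.44 (adjusted p = 0.0317, limma) and Cd5l by 1.71 ± 0.61 (adjusted p = 0.0417). Adgre1 stood at 0.91 ± 0.36 (adjusted p = 0.056) and Cd68 at 0.91 ± 0.37 (adjusted p = 0.0633). Marco, Cd163, Mrc1, Mertk and Msr1 stood at 0.79, 0.65, 0.42, 0.36 and 0.27 with adjusted p from 0.205 to 0.49.

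Markers of other cell types moved in the same comparison, where 8.43% of all genes were higher and 11.9% lower. In Relapse tumours 4 of 8 fibroblast and 3 of 7 T cell markers were higher (medians 1.55 and 0.77), with 1 of 6 lymphatic endothelium markers. Lower were 2 of 6 liver markers and 1 of 6 lymph node stroma markers. Their part in the result was not tested. Relapse replicate 6, the highest Relapse array for Cd5l and Marco, had a lymph node stroma score of 7.145, a B cell score of 7.026 and an adipocyte score of 10.1.

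These Relapse calls rested on single arrays. Without Relapse replicate 1, 3, 4 or 6 the count was 0, and without Relapse replicate 2, the lowest array for 7 members, it was 4. The call of Cd5l was also lost without NonResponder replicate 4, 10, 17 or 20. Against Responder tumours 0 of 9 members were called in Relapse tumours, with 0% of all genes (limma; 803 genes and 0 members at an unadjusted p below 0.05). Against control IgG 0 of 9 were called, where 23.6% of all genes were (1 member had an unadjusted p below 0.05).

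Stabilization arrays were all in the smaller series, where Responder tumours also read higher than in the larger one (Csf1r means 11.9 and 10.8). With the series pooled, Stabilization tumours held the highest group mean of every member but Marco. Within the smaller series their means were 12.42 for Csf1r and 7.09 for Cd163, against 11.9 and 6.82 in Responder tumours. Their replicates 1 and 2 stood above replicate 3 for 8 of 9 members. Csf1r read 13.44, 13.18 and 10.65, Cd68 read 12.7, 11.97 and 9.47, and Mrc1 read 11.67, 10.84 and 9.19 on replicates 1, 2 and 3. Marco alone was lowest on replicate 1 (6.32, 8.6 and 6.58). Of the 9 members 6 rose over NonResponder tumours, where 22.4% of all genes were called and 10.5% were higher. Csf1r rose by 2.06 ± 0.60 (adjusted p = 0.013, limma), Cd68 by 1.98 ± 0.51 (adjusted p = 0.00659), Adgre1 by 1.71 ± 0.50, Mrc1 by 1.54 ± 0.57, Msr1 by 1.41 ± 0.41 and Mertk by 1.40 ± 0.34. Cd5l stood at 1.90 ± 0.85 (adjusted p = 0.0892), Cd163 at 1.01 ± 0.72 and Marco at 0.66 ± 0.68.

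Other tissue markers moved with those arrays. The melanocyte score was 7.21, 9.26 and 10.46 on Stabilization replicates 1, 2 and 3, the fibroblast score 12.92, 11.82 and 10.29, and the skeletal muscle score 7.8, 11.98 and 4.94. Their part in the result was not tested. Without replicate 1 or replicate 2 the count of members called was 0. Stabilization over Responder tumours gave 0 of 9 members, where 0.319% of all genes were called, and 2 members had an unadjusted p below 0.05.

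The 2 GrowthDelay arrays read 8.79 and 10.22 for Csf1r, 7.36 and 8.32 for Adgre1, 8.58 and 9.37 for Cd68, and 7.28 and 7.29 for Mertk. They read 7.45 and 8.41 for Mrc1, 4.01 and 4.66 for Cd163, 5.88 and 6.75 for Cd5l, 7.79 and 7.6 for Msr1, and 5.27 and 5.94 for Marco. These arrays were in the larger series, and their means, not adjusted for title series, were the lowest of the 7 groups for every member. Against NonResponder tumours 0 of 9 members were called, with 0% of all genes (limma). An unadjusted p below 0.05 was found there for 567 genes and 0 members. ControlIgG against PBS tumours gave 0 of 9 members, where 0.0055% of all genes were called (240 genes and 0 members at an unadjusted p below 0.05). In the limma model this difference rested on the larger series, the only one with both groups (14 ControlIgG and 3 PBS arrays). It was -0.18 ± 0.60 for Csf1r and -1.17 ± 0.72 for Cd163, the largest in size (log2 difference ± SE). Cd68, Mertk, Cd5l and Msr1 had positive differences of 0.04 to 0.11. With errors this wide, the missing calls do not show equal levels. With the series pooled, Csf1r averaged 10.05 ± 0.91 in ControlIgG and 9.82 ± 0.52 in PBS tumours (SD, n = 22 and 7). Mrc1 averaged 8.80 ± 0.86 and 9.04 ± 0.88.

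Ordered by mean, Csf1r stood at 12.42 ± 1.54 in Stabilization, 11.31 ± 0.81 in Relapse, 11.21 ± 1.22 in Responder, 10.05 ± 0.91 in ControlIgG, 9.91 ± 0.89 in NonResponder, 9.82 ± 0.52 in PBS and 9.50 ± 1.01 in GrowthDelay tumours (SD). Of the neighbours in this order, Responder and ControlIgG tumours differed (above), while Relapse against Responder and NonResponder against ControlIgG tumours did not pass. The other neighbours were not compared. Mertk ran in nearly the same order, at 9.24 ± 1.25 in Stabilization, 8.52 ± 0.71 in Responder, 8.15 ± 0.30 in Relapse, 7.78 ± 0.43 in NonResponder, 7.72 ± 0.36 in ControlIgG, 7.50 ± 0.26 in PBS and 7.28 in GrowthDelay tumours. Mrc1 put PBS (9.04) and ControlIgG (8.80) tumours above NonResponder tumours (8.48 ± 0.96), and its Responder mean was 9.07 ± 1.08. Cd163 likewise averaged 5.796 ± 1.62 in PBS, 5.54 ± 1.02 in ControlIgG and 5.63 ± 1.41 in Responder tumours, against 5.23 ± 1.20 in NonResponder tumours. The means in this order pool the title series and are not adjusted for them, so some directions differ from the limma model with its series term. That model gave -0.11 for Mrc1 and for Cd163 in Responder minus ControlIgG, and -0.11 for Mertk in NonResponder minus ControlIgG.

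Growth factors and regulators of macrophages were compared next in Responder over NonResponder tumours, where 17.2% of all genes were higher and 29.8% lower. Of 14 measured growth factors and regulators (of 15 listed), 11 rose and 0 fell, with a median difference of 0.78. The transcription factor Irf8 rose by 1.40 ± 0.23 (adjusted p = 5.17e-05, limma), the GM-CSF receptor chains Csf2ra and Csf2rb by 0.86 and 1.44, and the Csf1r ligand Csf1 by 0.51. The other Csf1r ligand, Il34, stood at -0.02 (adjusted p = 0.85). Spi1, which encodes PU.1, rose by 0.91 ± 0.19. Of 20 listed general monocyte and macrophage genes 19 rose (median 0.66). Those with the smallest p were Laptm5 (1.501), Ptprc (1.26), Ctsb (0.39) and C1qc (0.89), and Ms4a7 stood at 0.36 (adjusted p = 0.0671). Ptprc (CD45) and Laptm5 are shared with other leukocytes, and 7 of 7 T cell markers rose in the same comparison.

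Engulfment genes moved in both directions. Of 27 bridging and engulfment genes 17 rose and 3 fell (median 0.30). Axl, a receptor of the Mertk family, rose by 0.72 ± 0.14 (adjusted p = 0.000172, limma), the phosphatidylserine receptor Havcr2 by 1.04 ± 0.20, the lipid exporter Abca1 by 1.21 ± 0.24 and the small GTPase Rac2 by 1.23 ± 0.26. Tyro3, the last receptor of that family, fell by 0.23 on the log2 scale, and Adgrb1 and Gulp1 fell by 0.19 and 0.66. Of 18 further scavenger and resident macrophage genes 6 rose and 3 fell (median 0.17), so that 9 of 18 were called, near the 47% of all genes. Of all genes 17.2% were higher and 29.8% lower in this comparison. The receptor ligand Cxcl16 rose by 0.59, the beta-glucan receptor Clec7a by 0.997 and the iron exporter Slc40a1 by 1.04. Clec4f, Hpgds and Siglec1 fell by 0.18, 0.50 and 0.12. Against control IgG 14.5% of all genes were higher in Responder tumours and 22.8% were lower. The same lists gave 7 of 14, 10 of 20, 11 of 27 (with 3 lower) and 1 of 18 (with 3 lower) rising there.

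Markers of other cell types moved in the same comparison. In Responder over NonResponder tumours 7 of 7 T cell and 8 of 8 fibroblast markers rose (medians 1.24 and 1.10), where 17.2% of all genes were higher. Also higher were 3 of 7 dendritic cell, 2 of 7 neutrophil, 2 of 6 lymphatic endothelium and 1 of 6 lymph node stroma markers. Those that fell were 2 of 8 melanocyte, 3 of 6 liver, 1 of 6 lymphatic endothelium and 1 of 6 lymph node stroma markers. Only the liver markers fell in a larger share than the 29.8% of all genes. That list includes Clec4f, already counted above among the scavenger and resident macrophage genes. Its mean score was 5.88 in Responder and 5.98 in NonResponder tumours, near the array medians of 5.71 to 5.90, with a median difference of -0.10. Against control IgG, where 14.5% of all genes were higher, 7 of 7 T cell markers rose in Responder tumours (median 1.27) and 0 of 8 fibroblast markers did (median 0.09). The fibroblast score ran from 6.63 to 12.7 in Responder, from 5.96 to 11.62 in NonResponder and from 7.39 to 11.54 in ControlIgG tumours. The T cell score ran from 5.73 to 10.15, from 5.36 to 10.15 and from 5.45 to 7.05 in the same groups. Their part in the members' differences was not tested.

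Beyond the group differences, the 9 genes varied together from array to array. After the mean of each group within each title series was taken out, all 36 pairs of members were positively correlated over the 90 arrays. Csf1r and Adgre1 had the highest Pearson's r, 0.954 (Spearman's coefficient 0.94), and Mertk and Cd163 the lowest, 0.526 (Spearman 0.364). Every Pearson p was 1e-05, the smallest that 100000 permutations within groups and series can give, and was the same after adjustment over the 36 pairs. Spearman's coefficient had a highest adjusted p of 0.00073. Without the 2 arrays farthest from the median of the first gene, r ran from 0.483 to 0.941. The identity genes formed one tight set (r of 0.894 to 0.954 among Csf1r, Adgre1 and Cd68), and Mrc1 was closest to Cd163 (r = 0.879, Spearman 0.859) and Msr1 (r = 0.821, Spearman 0.783).

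The members also differed in which other cell markers they tracked. These 99 relations, 9 members against 11 marker scores, were chosen after the data were seen. Mrc1 correlated with the fibroblast score at r = 0.895 (adjusted p = 1.83e-05, permutation test; Spearman 0.844) and with the T cell score at r = 0.504 (adjusted p = 1.83e-05; Spearman 0.396, adjusted p = 0.000554). Cd163 gave 0.798 with the fibroblast score (Spearman 0.773) and 0.352 with the T cell score (Spearman 0.225), and that T cell value was 0.215 without the 2 arrays farthest from the median T cell score. Mertk gave 0.678 with the fibroblast score (Spearman 0.512) and 0.737 with the T cell score (Spearman 0.633), and Csf1r 0.857 (Spearman 0.785) and 0.713 (Spearman 0.632). Cd163 also gave 0.825 with the lymphatic endothelium score (Spearman 0.817) and Mrc1 0.747 (Spearman 0.738). That list holds Lyve1, which some resident macrophages express. The dendritic cell score was positively related to all 9 members, from 0.628 for Marco (Spearman 0.574) to 0.841 for Csf1r (Spearman 0.778). Mertk gave 0.807 with it (Spearman 0.695), above its values for the fibroblast and T cell scores. The dendritic cell list holds Clec10a, a lectin of macrophages as well as dendritic cells. It also holds Cd209a, which is in the list of scavenger and resident macrophage genes too. All 9 members were negatively related to the melanocyte score, from -0.359 for Marco to -0.651 for Mertk. Differences between these correlations were not tested.

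**Figure D4:**
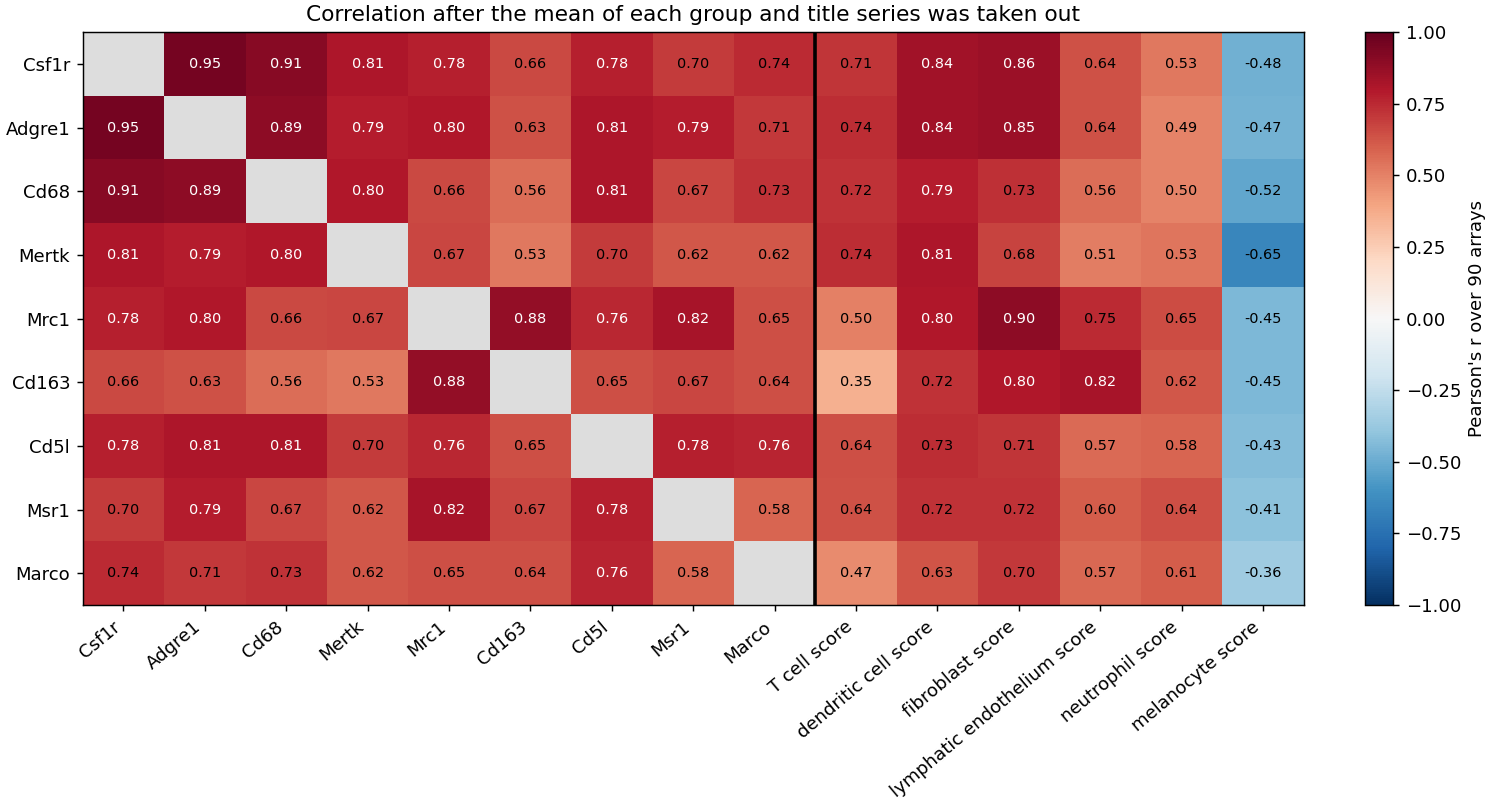
Pearson's r over 90 arrays, after the mean of each group and title series was taken out, between the 9 genes (left of the line) and between each gene and 6 marker scores (right of it); red is positive and blue negative. Csf1r, Adgre1 and Cd68 form the darkest block, Mrc1 and Cd163 pair at 0.88, and the T cell column is palest for Cd163 (0.35).

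The genes most like each member were named by the correlation of the same residuals, as a description over the 90 arrays. Csf1r was closest to the nucleotide receptor P2ry6 (r = 0.97), the oxidase subunit Ncf1 (0.96) and Rassf4 (0.958). Adgre1 was closest to Pld4 (0.959), Shtn1 (0.952) and the complement subunit C1qc (0.952), and Cd68 to Tmem106a (0.965), the lysosomal protease Lgmn (0.946) and the phagosomal metal transporter Slc11a1 (0.944). Mertk was closest to Slc25a45 (0.907), Pik3r5 (0.902) and Slc43a2 (0.9). Mrc1 was closest to the macrophage and dendritic cell lectin Clec10a (0.937), the mesenchymal transcription factor Prrx1 (0.915) and the growth factor Pdgfc (0.911). Cd163 was closest to the coagulation factor F13a1 (0.897), the endothelin receptor Ednrb (0.878) and Clec10a (0.87). Cd5l was closest to the leukocyte tetraspanin Cd53 (0.869), properdin Cfp (0.868) and Alox5ap (0.865), and Msr1 to the phospholipase Pla2g4a (0.939), Ms4a6d (0.927) and Cd84 (0.922). Marco had the weakest partners by Pearson's r, Ampd3 (0.796), the basement membrane protein Nid1 (0.77) and Gda (0.769). Spearman's coefficient was 0.798, 0.755 and 0.784 for these, and 0.763, 0.757 and 0.712 for the partners of Mertk.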

How the data were processed

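Gene expression was measured on 90 Affymetrix arrays, 1 per sample. The deposited values are log2 intensities, made by the authors with RMA per the submitters' processing notes, which also name limma; versions and the genome build are not given in the sources used here. The lowest value was 2.19 and the highest 14.8; no 2 columns were identical. Precision is limited by the number of arrays. Of 45101 probe sets, 34945 carried 1 gene symbol; 64 control probe sets, 932 with several symbols and 9160 not listed were left out. The probe set with the highest mean stood for each of 18193 genes (a choice for 9010).

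Groups came from the treatment labels. Limma (3.58.1, R 4.3.3; lmFit and eBayes) was fitted to all arrays with group and title series as terms, with Benjamini-Hochberg adjustment over all genes and a threshold of 0.05; it was tested on simulated data. Permutation tests used 100000 resamples (Python 3.11.15, numpy 2.4.6, scipy 1.17.1). Marker scores are means of log2 values. All 9 members are named in the text; of each related list, the 4 called genes with the smallest p and those called in the opposite direction, with a few others chosen after their values were seen (Spi1, Il34, Ms4a7, Slc40a1); and the 3 genes most like each member. Members and lists were chosen with earlier results of these data known.

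Alternatives covered normalization, dim genes, the probe set used, the title series term, array weights and arrays left out.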

Additional observations from a re-analysis of the deposited data

How the results depend on the processing

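In Responder minus NonResponder tumours the count of 8 members called was 6 to 8 under every alternative run but the larger title series fitted alone, which gave 0, and the single member values kept their sign throughout (16 values lost the call and 99 kept their side of the threshold). Against control IgG, the 4 members called in Responder tumours fell to 2 with quantile normalization and 2 without the 5 arrays of lowest mean correlation. They fell to 3 without adipocyte-high arrays and to 1 with the larger series fitted alone. The count was 5 with no title series term, and 2 to 4 with single arrays left out. The uncalled differences near 0 turned over: Mrc1 to 0.27 and Cd163 to 0.092 with no title series term, and to 0.17 and 0.14 without muscle-high arrays. Msr1 turned to -0.040 with median centring, -0.055 with quantile normalization, -0.0063 without the lymph node high arrays, -0.071 without adipocyte-high arrays, -0.10 without the 5 lowest-correlation arrays and -0.080 in the larger series alone. NonResponder minus ControlIgG became 0.23 for Csf1r, 0.055 for Adgre1, 0.16 for Cd68 and 0.14 for Mertk without muscle-high arrays, and 0.059 for Mertk with no series term.

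The 2 Relapse calls over NonResponder tumours became 1 with quantile normalization, with the mean of probe sets and with no series term. They became 6 with array weights, 4 without the lymph node high arrays and 5 without the lowest-correlation arrays. They became 0 without muscle-high or adipocyte-high arrays and in either title series alone, and 0 to 4 with each Relapse array left out; Msr1 turned to -0.011 in the smaller series. Relapse minus ControlIgG gave 5 with array weights and 1 without muscle-high or without lowest-correlation arrays. The 6 Stabilization calls over NonResponder tumours became 0 without muscle-high arrays, which leaves 1 Stabilization array (Cd163 -0.43, Cd5l -0.64), 1 without the lowest-correlation arrays, and 0 to 7 with each Stabilization array left out (Marco -0.059 to 1.08). Stabilization minus Responder gave 9 with array weights, 1 without adipocyte-high arrays and 0 to 2 with single arrays left out. ControlIgG minus PBS gave 1 with array weights. The array weight estimation stopped before it converged. The causes were not tested.

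Median centring moved the median of all genes from -0.06 to -0.18 in Relapse minus NonResponder, and the share of higher among called genes from 36.7% to 18.4% in Responder minus NonResponder; with dim genes left out, where 7 of the members were tested, it was 54.4%. That share was 41.5% in Relapse minus NonResponder, and 10.8% with median centring, 25.1% with quantile normalization and 79.4% with dim genes left out. In Responder minus ControlIgG it was 38.9%, and 24.4% with median centring and 64.2% with dim genes left out. The count over all genes in Responder minus NonResponder, 8552 as fitted, was 2559 without muscle-high arrays, 550 in the larger series alone and 3467 in the smaller one alone. Of 36 member pairs 14 differed in their change with the lymph node high arrays left out, and 10 with the mean of probe sets. No paired analysis was possible because the titles give no replicate number shared between groups; replicate numbers were given in accession order.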
